A study of Mus musculus with 15 samples.

Results

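Glutathione is the most abundant small thiol of animal cells, and 10 genes that make, recycle, use or break it down were followed here in brown fat of mice, a depot that produces heat. They are Slc7a11, Gclc, Gclm, Gss and Nfe2l2 on the supply side, Chac2, Chac1 and Ggct on the breakdown side, and Gsr and Gpx4 in its use. They were taken by gene symbol from a table of 16774 genes, and all 10 were found. The set was put together with results of the same comparison known: Chac2 was 1 of the 8 genes called lower in animals given bisphenol S, while 42 were called higher. The group differences of the 10 genes are therefore a description, and no test of them is offered as support.

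Bulk RNA sequencing compared 8 vehicle-treated mice with 7 mice given bisphenol S (BPS), an industrial substitute for bisphenol A, in a study of BPS exposure and aging of this tissue. Each library carries its own mouse identifier and is named here by group and replicate number. The sources used here give no dose, duration, strain, sex, age or strandedness. Levels are FPKM, fragment counts scaled to transcript length and library total. Differences are log2 changes of FPKM + 1, BPS minus vehicle, with limma standard errors, from a fit across 12156 genes that reached 1 FPKM in at least 7 libraries.

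A cell joins glutamate to cysteine with glutamate-cysteine ligase, whose catalytic subunit is encoded by Gclc and whose modifier subunit by Gclm, and glutathione synthetase (Gss) then adds glycine. Cysteine is often limiting, and the transporter encoded by Slc7a11 brings in its oxidized form, cystine. The ChaC enzymes cut glutathione directly inside the cell, Chac2 in most tissues at rest and Chac1 mostly under stress, when the transcription factor Atf4 switches it on. Gpx4 spends glutathione to repair lipid peroxides, and Gsr turns the oxidized form back into reduced glutathione. Nfe2l2 (Nrf2) is the transcription factor that drives many of these genes. Brown fat burns lipid in mitochondria and carries a high load of oxidants.

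The stretches of 250 bases upstream of the transcript start are shown for Chac2, Chac1 and Slc7a11, because the first had the most separate groups and the others share a motif but not a pattern. All are RefSeq sequences of the GRCm38.p6 build, read on the strand of the gene. They cover chr11:30986366-30986615 on the minus strand, chr2:119350992-119351241 on the plus strand and chr3:50443614-50443863 on the minus strand. The Slc7a11 window lies inside the gene span printed for it below, so it precedes an internal transcript start. Capitals mark TTGCATCA or its reverse complement TGATGCAA, a motif bound by Atf4 with C/EBP partners.
Chac2: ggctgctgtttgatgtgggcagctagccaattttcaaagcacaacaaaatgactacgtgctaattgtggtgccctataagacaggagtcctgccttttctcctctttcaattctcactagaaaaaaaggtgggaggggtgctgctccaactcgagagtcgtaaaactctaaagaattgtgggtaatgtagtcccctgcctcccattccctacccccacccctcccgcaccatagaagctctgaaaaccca
Chac1: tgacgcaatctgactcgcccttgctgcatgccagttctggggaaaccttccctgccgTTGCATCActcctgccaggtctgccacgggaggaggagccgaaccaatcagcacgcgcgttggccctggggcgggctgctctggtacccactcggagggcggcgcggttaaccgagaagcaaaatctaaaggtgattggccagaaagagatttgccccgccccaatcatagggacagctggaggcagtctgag
Slc7a11: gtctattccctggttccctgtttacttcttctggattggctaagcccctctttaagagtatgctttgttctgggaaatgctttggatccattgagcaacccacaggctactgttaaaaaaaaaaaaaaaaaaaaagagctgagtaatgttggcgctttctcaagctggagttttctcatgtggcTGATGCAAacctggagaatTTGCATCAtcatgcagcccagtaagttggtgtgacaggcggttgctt

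Chac1 held the motif once, 193 to 186 bases before its start. Slc7a11 held it on each strand, at 66 to 59 and 47 to 40 bases before that internal start. Chac2 held none in this window. Among all 32851 RefSeq windows of the same length, 0.791% held it on either strand. The core of the antioxidant response element, TGACNNNGC on either strand, the sequence class that Nrf2 binds with small Maf proteins, was found in the windows of Nfe2l2 (TGACTCCGC), Gclm (GCACCGTCA) and Ggct (GCGACGTCA), and in 10.2% of all windows. Windows for 8 of the 10 genes were in the table, with 4 windows for Gpx4, and Gclc and Gsr were not in it. The windows of Gclm and Ggct overlap in part the gene spans printed below. A match is a description of letters and does not show binding.

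Some libraries stood apart in genes outside the set, and they were picked out with earlier results of these data known. Expressed as a share of the average vehicle level, 4 Y-linked genes reached 0.437%, 26.4%, 53.5% and 74.5% in BPS replicates 4, 8, 5 and 6, against 82.9% to 114.7% in the other 11 libraries. The labels give no sex, and it could not be settled here whether each of these 4 libraries holds RNA of its labelled mouse alone, which bears on every BPS mean below. Their macrophage score, the mean log2(FPKM + 1) of 8 macrophage markers, was 4.65 to 5.26, and that of the other 11 libraries was 3.82 to 4.45. None of these 8 markers was at 0 in any library, their summed level was 230.87 to 346.23 FPKM in vehicle and 227.9 to 707.77 FPKM in BPS, and all 8 log2 changes were positive with a median of 0.41, or -0.17 without those 4 libraries. Their white adipocyte score (9 markers) was 4.36 to 4.998, above the 2.92 to 4.34 of the other 11. Up to 2 of the 9 were at 0 in a library. Of 7 tested markers 6 had positive changes, and the median was 0.38, or -0.27 without those 4 libraries. Lep, Nnat and Agt were higher in each of these 4 libraries than in any of the other 11, and the other markers overlapped. Retn was at 2316, 1096, 1192 and 1500 FPKM in BPS replicates 4, 5, 6 and 8, against 444 to 1949 FPKM in vehicle. Hoxc8 was at 1.23, 1.13, 3.55 and 3.52 FPKM in BPS replicates 4, 5, 6 and 8. In vehicle it was at 1.5 to 9.85 FPKM. The summed level of the 9 markers was 608.06 to 2638.58 FPKM in vehicle and 434.8 to 6077.7 FPKM in BPS. Neutrophil markers (6 genes) instead scored highest in BPS replicates 1, 2 and 3, at 2.55 to 2.94 against 1.77 to 2.23 elsewhere. All 3 tested were called without BPS replicates 4, 5, 6 and 8, beside 0.271% of all tested genes. With all 15 libraries 0 of these 3 were called. The summed level of the 6 neutrophil markers was 43.36 to 85.26 FPKM in vehicle and 42.68 to 214.54 FPKM in BPS. Skeletal muscle transcripts were highest in vehicle replicates 2, 6 and 8, where the 17 muscle markers had a mean log2(FPKM + 1) of 10.8, 10.8 and 9.31, against 2.39 to 7.77 in the other vehicle libraries and 0.819 to 8.37 in BPS. All 17 had negative log2 changes with a median of -2.20, their summed level was 296.93 to 79910.4 FPKM in vehicle and 100.55 to 14461.9 FPKM in BPS, and up to 3 of them were at 0 in a BPS library. Brown adipocyte markers were present in every library, with Ucp1 between 82.3 FPKM in BPS replicate 4 and 2321 FPKM in vehicle replicate 7. In bulk tissue, fewer cells of a type and less RNA per cell cannot be told apart. FPKM summed to between 756556 and 920855 per library. Depth in reads is unknown.

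In vehicle tissue the 10 genes spanned a wide range of levels. Gpx4 was by far the most abundant at 4866 ± 661 FPKM (SD, n = 8), followed by Nfe2l2 at 57.7 ± 9.16, Gss at 25.3 ± 6.20, Chac2 at 23.9 ± 3.48, Gsr at 15.8 ± 1.76, Gclm at 13.4 ± 1.77, Gclc at 10.6 ± 1.38, Ggct at 7.52 ± 1.09, Chac1 at 7.12 ± 7.74 and Slc7a11 at 0.798 ± 0.28 FPKM. Some neighbours in this order were not separated by their spread: Gss lay above Chac2 in 5 of 8 vehicle libraries, Gclm above Gclc in 5 of 8, and Ggct above Chac1 in 6 of 8. In BPS each of these pairs was ordered alike in 7 of 7 libraries, with Gss above Chac2, Gclm above Gclc and Ggct above Chac1. Chac2 and Gsr went the other way, with Chac2 above Gsr in 8 of 8 vehicle and 4 of 7 BPS libraries. The coefficient of variation in vehicle was 14.6% for Chac2 and 108.7% for Chac1, or 12.1% and 34.9% without vehicle replicates 2, 6 and 8, and in BPS it was 15.2% and 25.4%.

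**Figure D1:**
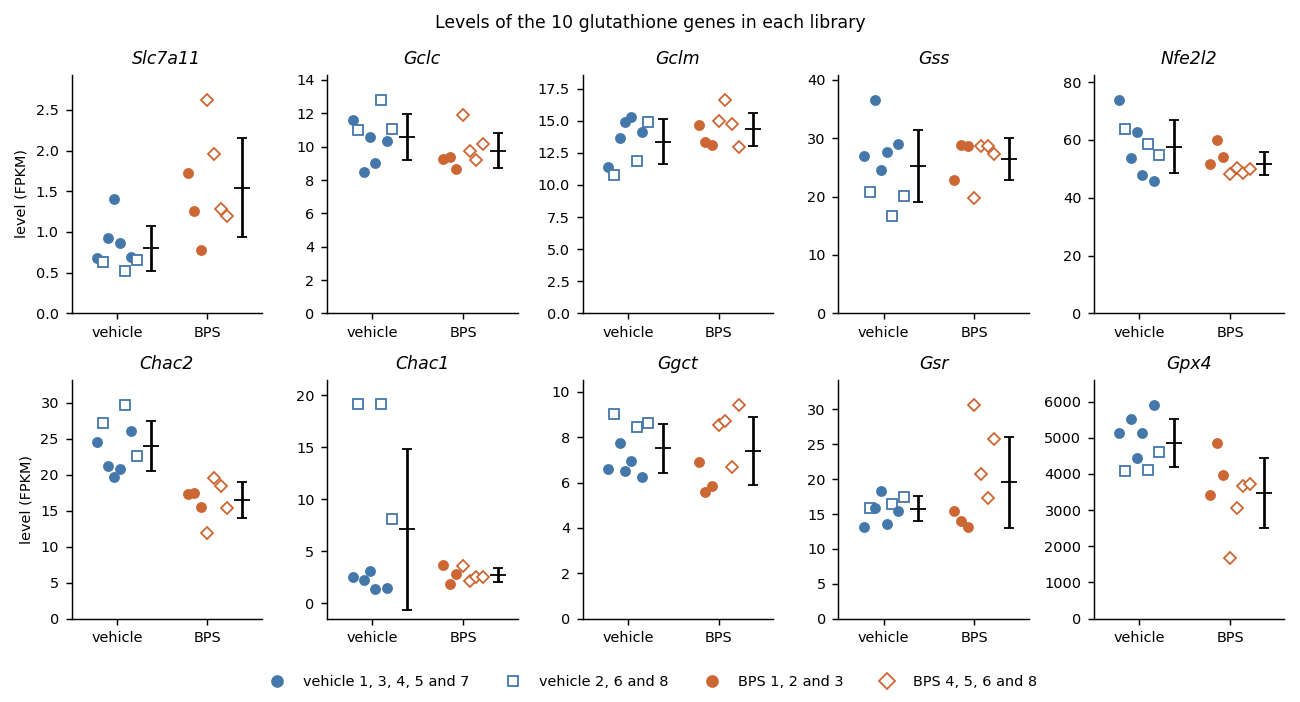
Levels in FPKM of the 10 genes in 8 vehicle and 7 BPS libraries, 1 point per library, with the mean and SD beside each group. Chac2 was at 19.6 FPKM or more in every vehicle library and at 19.5 FPKM or less in every BPS library, and Chac1 was high in the 3 vehicle libraries drawn as open squares.

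Chac2 (Entrez 68044, chromosome 11, 30976707 to 30986365) was the gene of the set whose groups did not overlap. It was at 24.6, 27.1, 21.2, 19.6, 20.8, 29.6, 26.0 and 22.6 FPKM in vehicle replicates 1 to 8, whereas BPS replicates 1, 2, 3, 4, 5, 6 and 8 had 17.3, 17.4, 15.5, 11.9, 19.5, 18.4 and 15.4 FPKM. All 7 BPS libraries lay below the lowest vehicle library, though the gap between BPS replicate 5 and vehicle replicate 4 was small. The BPS mean of 16.5 ± 2.51 FPKM (SD, n = 7) was 68.8% of the vehicle mean, a log2 change of -0.52 ± 0.107 (SE). It was the only one of the 10 genes under an adjusted p of 0.05 (limma, Benjamini-Hochberg over all 12156 genes), and it held that call in 4 of 28 alternative settings. Among all tested genes 0.411% were called, 0.0658% as lower in BPS and 0.346% as higher. Groups did not overlap for 0.576% of them, and for 0.107% every BPS library was lower. These shares stand beside the count only as background, since the set was chosen on this comparison.

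The Chac2 difference kept its direction, at a smaller size and past the threshold in none of these settings, when the libraries that stood apart were set aside or modelled. BPS replicates 1, 2 and 3 averaged 16.7 ± 1.06 FPKM (SD, n = 3) and BPS replicates 4, 5, 6 and 8 spanned 11.9 to 19.5 FPKM. Without the latter 4 libraries the log2 change was -0.48 ± 0.122, without vehicle replicates 2, 6 and 8 it was -0.43 ± 0.115, and with the muscle score as a covariate it was -0.45 ± 0.111. With Y-linked level modelled it was -0.39 ± 0.102, the smallest of the 28 alternatives. The vehicle libraries rich in muscle transcript included the highest Chac2 levels, 27.1 and 29.6 FPKM, and the other 5 ranged from 19.6 to 26.0 FPKM. The part of muscle in the difference was not tested. In the GENCODE annotation Chac2, there spanning 9644 bases, lies within Asb3 on the opposite strand, and the exons of the 2 genes share 0 bases. Asb3, which encodes an ankyrin repeat and SOCS box protein, averaged 4.36 ± 1.03 FPKM with vehicle and 4.97 ± 0.815 with BPS (log2 change 0.17 ± 0.132, limma adjusted p 0.424).

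Chac1 (Entrez 69065, chromosome 2, 119351242 to 119354326), the stress-inducible relative, had a different pattern. It was at 19.2 FPKM in vehicle replicates 2 and 6 and at 8.06 FPKM in vehicle replicate 8, but at 1.32 to 3.08 FPKM in the other 5 vehicle libraries. In BPS it ranged from 1.83 to 3.69 FPKM with a median of 2.52. The vehicle libraries with high Chac1 are thus the 3 with the most muscle transcript. The log2 change over all libraries was -0.61 ± 0.465. It turned to 0.27 ± 0.168 without vehicle replicates 2, 6 and 8, where vehicle averaged 2.11 ± 0.736 FPKM (SD, n = 5) against 2.72 ± 0.69 FPKM in BPS (SD, n = 7). With the muscle score as a covariate it was -0.05 ± 0.338.

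The third cyclotransferase, Ggct (Entrez 110175, chromosome 6, 54985095 to 54992960), acts on gamma-glutamyl amino acids rather than on glutathione itself. It ranged from 6.26 to 9.04 FPKM in vehicle, median 7.34, and from 5.57 to 9.41 FPKM in BPS, median 6.92, with a log2 change of -0.03 ± 0.113. Its groups overlapped, with 2 BPS libraries below and 1 above the vehicle range. Without BPS replicates 4, 5, 6 and 8 the change was -0.25 ± 0.121, and without vehicle replicates 2, 6 and 8, which held the highest vehicle levels, it was 0.09 ± 0.122. Because both values come from 1 library, the ratio of Chac2 to Ggct does not depend on scaling by library total: it was 3.22 ± 0.528 in vehicle (SD, n = 8) and 2.32 ± 0.623 in BPS (SD, n = 7), with ranges of 2.62 to 4.16 and 1.39 to 3.13 that overlapped.

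**Figure D2:**
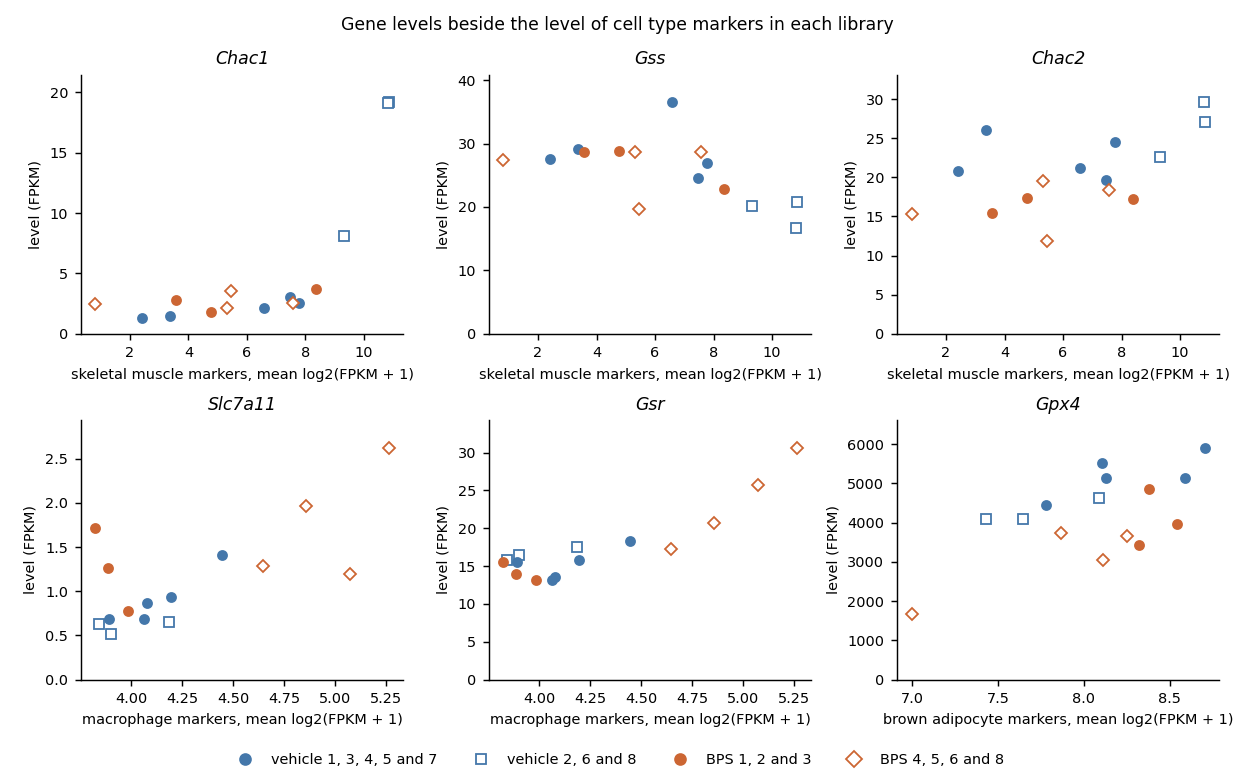
Levels in FPKM of 6 of the genes plotted against the mean log2(FPKM + 1) of skeletal muscle, macrophage or brown adipocyte markers, 1 point per library. Chac1 was highest in the 2 libraries with a muscle score of 10.8, Gsr was highest in BPS replicate 4 where the macrophage score was 5.26, and Gpx4 was lowest in that library, where the brown adipocyte score was 7.00.

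Among the supply genes, Slc7a11 (Entrez 26570, chromosome 3, 50364936 to 50499087) was the one with the largest difference, at levels near the floor of the table. It was at 0.68, 0.63, 0.93, 1.41, 0.87, 0.52, 0.69 and 0.65 FPKM in vehicle replicates 1 to 8, whereas BPS replicates 1, 2, 3, 4, 5, 6 and 8 had 1.72, 1.26, 0.78, 2.62, 1.96, 1.28 and 1.2 FPKM. All 7 BPS libraries lay above the vehicle median of 0.685 FPKM, and 3 lay above the highest vehicle library. It entered the fit mainly through BPS, with 6 of 7 BPS and 1 of 8 vehicle libraries at 1 FPKM or more. The log2 change was 0.48 ± 0.14 with all libraries and 0.32 ± 0.158 without BPS replicates 4, 5, 6 and 8, where BPS averaged 1.25 ± 0.47 FPKM (SD, n = 3). At such low levels it depended on the pseudocount, and was 0.84 with 0.1 and 0.17 with 5 in place of 1. The macrophage score stood highest in BPS replicate 4, which also had the highest Slc7a11, while BPS replicate 1 had 1.72 FPKM at a score of 3.82, the lowest of all libraries. The part of macrophages, or of white adipocytes, whose score was also highest in BPS replicate 4, was not tested. Chac1 and Slc7a11 share the TTGCATCA motif shown above, but the libraries with high Chac1, vehicle replicates 2, 6 and 8, had the lowest Slc7a11 levels of all 15, at 0.52 to 0.65 FPKM.

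The enzymes of synthesis differed between the groups by less than the spread between libraries. Gclc (Entrez 14629, chromosome 9, 77754535 to 77794489) ranged from 8.47 to 12.8 FPKM in vehicle, median 10.8, and from 8.65 to 11.9 FPKM in BPS, median 9.36. Gclm (Entrez 14630, chromosome 3, 122245487 to 122267215) ranged from 10.8 to 15.3 FPKM, median 13.9, and from 12.97 to 16.6 FPKM, median 14.6. Every BPS level of Gclc lay within the vehicle range, and 6 of 7 lay below the vehicle median, while for Gclm 4 of 7 lay above it. Their log2 changes were -0.11 ± 0.0848 and 0.10 ± 0.0844, and without BPS replicates 4, 5, 6 and 8 they were -0.19 ± 0.111 and 0.04 ± 0.115. The ratio of catalytic to modifier subunit transcripts was 0.812 ± 0.194 in vehicle and 0.683 ± 0.0796 in BPS. The vehicle libraries fell at 1.01, 1.02 and 1.08 in replicates 1, 2 and 6 and at 0.588 to 0.739 in the other 5, and the BPS libraries at 0.587 to 0.795, so the groups overlapped. Of the 6291 annotated exon bases of Gclm, 296 are shared with Gm17494 on the opposite strand. The pseudogene Gm6061, on the same strand, shares 244, so some reads of Gclm may not be separable.

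Gss (Entrez 14854, chromosome 2, 155563181 to 155592810) ranged from 16.7 to 36.5 FPKM in vehicle, median 25.7, and from 19.7 to 28.8 FPKM in BPS, median 28.6. The lowest vehicle levels, 16.7 to 20.8 FPKM, were those of the 3 muscle-rich libraries, the reverse of Chac1. Its log2 change of 0.08 ± 0.141 became -0.13 ± 0.118 without them. Gss overlaps Acss2, a cytosolic acetyl-CoA synthetase gene on the opposite strand, with 395 of its 5915 annotated exon bases shared, so some reads may not be separable without strand. Exons of Gss also share 385 and 322 bases with the antisense genes Gssos2 and Gssos1. Acss2 averaged 104.8 ± 58.4 FPKM with vehicle and 66.6 ± 37.5 with BPS (log2 change -0.62 ± 0.402, limma adjusted p 0.354). Nfe2l2 (Entrez 18024, chromosome 2, 75675513 to 75704663) ranged from 45.6 to 73.8 FPKM in vehicle, median 56.8, and from 48.3 to 59.9 FPKM in BPS, median 50.4. Its BPS levels all lay within the vehicle range, with a log2 change of -0.14 ± 0.0945, or -0.05 ± 0.135 without BPS replicates 4, 5, 6 and 8.

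Gpx4 (Entrez 625249, chromosome 10, 80047166 to 80056439), the lipid peroxide reductase, was lower in most BPS libraries. It was at 5128, 4091, 5509, 4438, 5147, 4098, 5898 and 4615 FPKM in vehicle replicates 1 to 8, whereas BPS replicates 1, 2, 3, 4, 5, 6 and 8 had 3428, 4853, 3962, 1677, 3049, 3659 and 3728 FPKM. All 7 BPS libraries lay below the vehicle median of 4872 FPKM and 6 lay below the lowest vehicle library, with BPS replicate 2 the exception. The mean was 3480 ± 970 FPKM in BPS (SD, n = 7), 71.5% of that in vehicle, with a log2 change of -0.53 ± 0.181. It was -0.37 ± 0.118 without BPS replicate 4 and -0.26 ± 0.151 without BPS replicates 4, 5, 6 and 8, where BPS averaged 4081 ± 720 FPKM (SD, n = 3). It was -0.31 ± 0.146 with quantile normalization and -0.25 ± 0.135 with Y-linked level modelled. The brown adipocyte score was 7.00 in BPS replicate 4, the lowest of all libraries. It was 7.87 to 8.54 in the other BPS libraries, against 7.43 to 8.70 in vehicle. Its 11 markers were split, with 5 positive and 6 negative changes. Cox8b was at 699, 4851 and 4121 FPKM in BPS replicates 4, 5 and 8, against 5518 FPKM or more in vehicle. Cox7a1 was at 311, 2529 and 1837 FPKM in them, against 2551 FPKM or more. Adipoq was at 4027, 2983 and 2927 FPKM in them, against 2196 FPKM or less. In BPS replicate 6, Cox8b at 6340 and Cox7a1 at 3099 FPKM lay within the vehicle range, and Adipoq at 2305 FPKM lay above it. In BPS replicates 5 and 8, Ucp1 at 1222 and 578 FPKM and Cidea at 2037 and 1319 FPKM lay within the vehicle range. BPS replicates 1 and 3, with Gpx4 below every vehicle library, had brown adipocyte scores of 8.32 and 8.54. The part of brown adipocytes in the difference was not tested.

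Gsr (Entrez 14782, chromosome 8, 33653238 to 33698162) turns oxidized glutathione back into reduced glutathione with NADPH. Gsr was higher in some BPS libraries than in any vehicle library, and not in others. It was at 13.2 to 18.4 FPKM in vehicle, median 15.8. In BPS it was at 30.6, 25.7, 20.7 and 17.2 FPKM in replicates 4, 8, 5 and 6, while replicates 1, 2 and 3 had 15.5, 14.0 and 13.2 FPKM. The first 3 of these values lay above every vehicle library. The order of replicates 4, 8, 5 and 6 was also that of their macrophage scores (5.26, 5.07, 4.86 and 4.65), that of their white adipocyte scores (4.998, 4.81, 4.55 and 4.36) and that of their Y-linked levels from lowest to highest. The log2 change was 0.24 ± 0.155 with all libraries and -0.0249 with Y-linked level modelled. It turned to -0.14 ± 0.105 without these 4 libraries, where BPS averaged 14.2 ± 1.17 FPKM (SD, n = 3). The part of macrophages or white adipocytes in the difference was not tested.

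**Figure D3:**
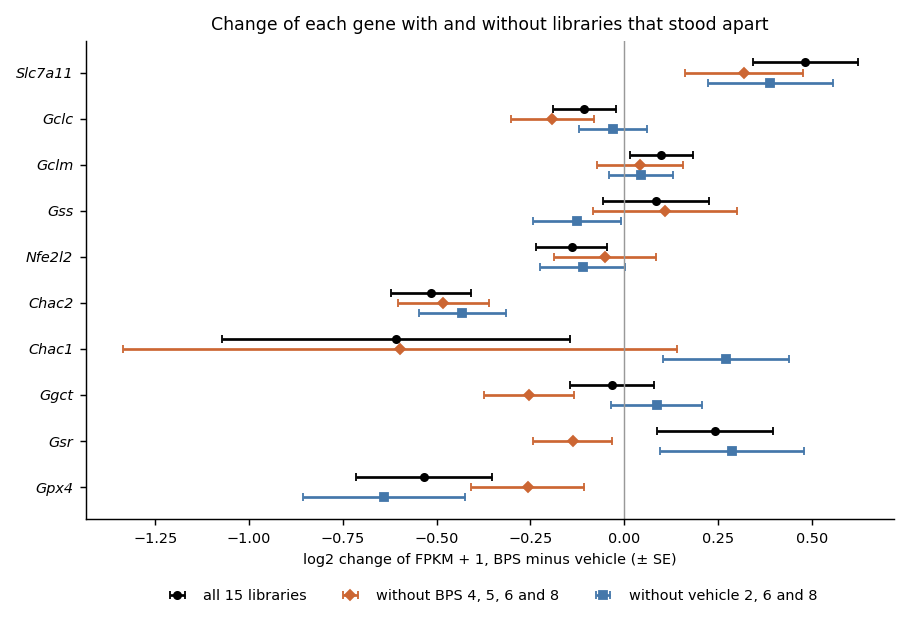
Log2 change of FPKM + 1 (BPS minus vehicle, ± SE) of each of the 10 genes with all 15 libraries, without BPS replicates 4, 5, 6 and 8, and without vehicle replicates 2, 6 and 8. Chac2 stayed between -0.52 and -0.43, whereas Gsr turned from 0.24 to -0.14 and Chac1 from -0.61 to 0.27.

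Across the set, 4 of the 10 log2 changes were positive and 6 negative, with a median of -0.07, beside a median of 0.05 over all 12156 tested genes. The 9 genes other than Chac2 had adjusted p between 0.102 and 0.879 (limma). At an unadjusted p under 0.05, 1 gene of the set was higher and 2 were lower. Over all tested genes 23.1% had such a p, 16.4% higher and 6.7% lower. The set was chosen on this comparison, and Slc7a11 entered the fit mainly through BPS. Nothing is therefore read from the count in the set. Without BPS replicates 4, 5, 6 and 8 the median was -0.17 beside 0.01 over all genes, and none of the 10 was called, beside 0.00823% of all genes called lower and 0.263% called higher. In the authors' deposited table, Chac2 had a log2 ratio of -0.62 with a q of 0.00204, Slc7a11 one of 0.90 with a q of 0.0149 and Gpx4 one of -0.56 with a q of 0.0453, and the other 7 genes had q between 0.0821 and 1.000. At a q under 0.05 that deposited list held 5.74% of its genes, 2.57% lower and 3.16% higher.

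The libraries' deviations in Chac2 were set beside those of every other tested gene, as log2 levels minus the group mean over the 15 libraries. The 5 genes most like it were Tmem56 (Pearson r 0.854, Spearman rho 0.843), Carnmt1, a methyltransferase of histidine dipeptides (0.842, 0.882), Abtb2 (0.838, 0.835), Trp53inp2, an autophagy and transcription cofactor (0.837, 0.789), and Cisd2, an iron-sulfur protein of the endoplasmic reticulum and mitochondria (0.836, 0.786). These are the highest of 12155 genes and share libraries, total scaling and tissue composition with Chac2, so no p is given. None of them was called between the groups (log2 changes -0.51 to -0.07, adjusted p 0.113 to 0.762, limma). The other members were less like Chac2, with r from -0.52 for Slc7a11 and -0.42 for Gsr to 0.36 for Chac1 and Gpx4.

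Related genes were read from 7 lists outside the set, chosen with earlier results of these data known. Their counts stand beside a background, over all tested genes, of 58.5% with positive changes and 23.1% with an unadjusted p under 0.05. In the list of cysteine, glutamate and mitochondrial glutathione supply, 11 of 14 tested genes had positive changes, with a median of 0.19, and 1 was called. It was Glul, glutamine synthetase, which turns glutamate into glutamine. Glul was at 455 to 728 FPKM in vehicle, median 597, and at 693 to 1464 FPKM in BPS, median 956, and 6 of 7 BPS libraries lay above every vehicle library. Glul changed by 0.75 ± 0.147 on the log2 scale (limma adjusted p 0.0473), and by 0.54 ± 0.154 (adjusted p 0.318) without BPS replicates 4, 5, 6 and 8. It passed in 8 of 28 alternatives, and with single libraries left out only without vehicle replicate 4 (adjusted p 0.0497) or BPS replicate 2 (adjusted p 0.0205). In the same list Csad, which converts cysteine sulfinate towards taurine, ranged from 58.1 to 105.7 FPKM with vehicle and from 86.3 to 136.6 with BPS (log2 change 0.40 ± 0.139, adjusted p 0.132).

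The remaining lists held no called gene with all 15 libraries. Of 9 tested genes of the gamma-glutamyl cycle and its peptidases, 8 had positive changes and the median was 0.21, or -0.17 without the 4 BPS libraries. The exception was Ggt7, a member of the gamma-glutamyltransferase family, with levels of 0.95 to 2.09 FPKM under vehicle and 0.27 to 0.95 under BPS (log2 change -0.53 ± 0.124, adjusted p 0.074). It entered the fit through vehicle alone, with 7 of 8 vehicle and 0 of 7 BPS libraries at 1 FPKM or more, and 6 of 7 BPS libraries lay below every vehicle library. Cndp2, the peptidase that splits the cysteinyl-glycine left by ChaC enzymes, was at 27.5 to 37.2 FPKM in vehicle and at 52.3 to 103.8 FPKM in BPS replicates 4, 5, 6 and 8, but at 32.3 to 35.0 FPKM in BPS replicates 1, 2 and 3. Its log2 change was 0.69 ± 0.223 (adjusted p 0.115), and 0.05 ± 0.1 without those 4 libraries. At an unadjusted p under 0.05, 1 gene of this list was higher and 1 lower.

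Of 29 tested peroxidases, thioredoxins, glutaredoxins and glyoxalases, 15 had positive and 14 negative changes, with a median of 0.03, and 6 were higher and 0 lower at an unadjusted p under 0.05. Prdx6, a peroxiredoxin that draws on glutathione, averaged 188.8 ± 26.1 FPKM with vehicle and 237.9 ± 34.6 with BPS (log2 change 0.33 ± 0.109, adjusted p 0.119). Esd, which hydrolyses S-formylglutathione in the removal of formaldehyde, had a log2 change of 0.23 ± 0.0895 (adjusted p 0.161). The 13 genes of NADPH supply had a median of 0.01, with 2 higher at an unadjusted p under 0.05: Aldh1l1, of folate metabolism (0.94 ± 0.201, adjusted p 0.0578), and G6pdx, which opens the pentose phosphate pathway (0.55 ± 0.237, adjusted p 0.187). Without the 4 BPS libraries these changes were 0.51 ± 0.204 and 0.26 ± 0.326.

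The 19 tested regulators and targets of Nrf2 had a median of 0.01, with 12 positive and 7 negative changes, 3 higher and 1 lower at an unadjusted p under 0.05. Aldh3a2, a fatty aldehyde dehydrogenase, had a log2 change of 0.26 ± 0.0735 (adjusted p 0.0955), and Fth1, the ferritin heavy chain, one of 0.38 ± 0.123 (adjusted p 0.115). The 24 tested genes of the Atf4 stress response were split, with 12 positive and 12 negative changes, a median of 0.04 and 6 higher and 2 lower at an unadjusted p under 0.05. Ddit4, an inhibitor of mTOR signalling, had a log2 change of 0.77 ± 0.199 (adjusted p 0.0876) and Atf3, a stress-induced transcription factor, one of -1.57 ± 0.437 (adjusted p 0.0955). Atf4 itself and its targets Ddit3 and Trib3, named outside the rule for named genes after their values were seen, were set beside Chac1. In vehicle replicates 2, 6 and 8, where Chac1 was high, Ddit3 was at 66.7, 72.2 and 63.5 FPKM, below the 73.0 to 105.9 FPKM of the other 5 vehicle libraries, and Trib3 was at 7.45, 6.42 and 8.45 FPKM against 8.19 to 12.9 FPKM. For Trib3, vehicle replicate 8 lay within that range. Atf4 was at 282, 306 and 238 FPKM in these libraries, within the 187 to 424 FPKM of the others. Atf3, at 35.5, 45.4 and 28.4 FPKM, lay within 27.7 to 139.2 FPKM, and Ddit4, at 8.72, 7.12 and 9.42 FPKM, within 5.74 to 14.1 FPKM. The rest of the list was not set beside Chac1, and the part of Atf4 in its level was not tested. The 14 tested genes of ferroptosis and lipid peroxidation had a median of 0.01, with 2 higher and 2 lower at an unadjusted p under 0.05. Among them Ncoa4, which delivers ferritin to autophagy, differed by 0.40 ± 0.14 on the log2 scale (adjusted p 0.134) and Acsl3, an acyl-CoA synthetase, one of -0.32 ± 0.125 (adjusted p 0.158). Without BPS replicates 4, 5, 6 and 8, the log2 changes of Csad, Prdx6, Esd, Fth1 and Ncoa4 were smaller, at 0.18, 0.11, 0.07, 0.15 and 0.16. Those of Ddit4, Aldh3a2 and Acsl3 were 0.80, 0.22 and -0.21, and that of Atf3 was -0.63.

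**Figure D4:**
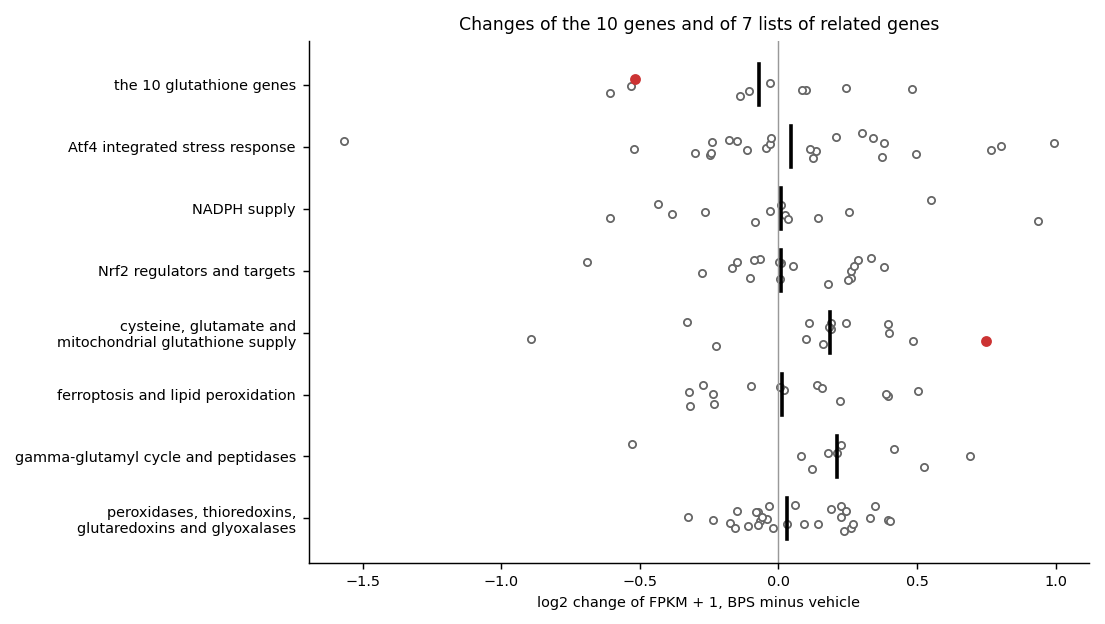
Log2 change of FPKM + 1 (BPS minus vehicle, all 15 libraries) of each tested gene of the set and of 7 related lists, 1 point per gene, with the median of each list as a bar. Filled points are the genes under an adjusted p of 0.05, Chac2 at -0.52 and Glul at 0.75.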

How the data were processed

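Poly(A) RNA of brown adipose tissue was sequenced from 8 vehicle and 7 BPS samples. The authors deposited FPKM per gene and sample, and separately a log2 ratio, a p-value and a q-value per gene. The submitters' processing notes name HISAT2 (2.1.0), Bowtie2, RSEM (1.3.1), DESeq2 (1.4.5) and the build GRCm38.p6, without their settings. Because FPKM is relative to a library's total, abundant transcripts such as those of muscle lower the values of other genes. Columns were matched to samples by the mouse identifiers in the labels.

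From these values, log2(FPKM + 1) was fitted with limma 3.58.1 in R 4.3.3 (intensity trend, robust spread, no covariate). The fit held the 12156 genes that reached 1 FPKM in 7 or more libraries, and p was adjusted by Benjamini-Hochberg over all of them (threshold 0.05). The fit was also run on simulated data with independent noise in each gene. Those data held no shared differences between libraries, such as muscle transcript, so that run does not bear on them. Members, lists and the libraries set aside were chosen with earlier results of these data known. Named genes were the members, each list's called genes and its 2 of smallest p, and the 5 most like Chac2. The 28 alternatives are given in the closing section.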

Additional observations from a re-analysis of the deposited data

Results flagged for a closer look

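Slc7a11 in vehicle replicate 4, at 1.41 FPKM, stood apart from the other 7 vehicle libraries, which lay between 0.52 and 0.93 FPKM. Its gap to the nearest of them was 0.539 of the whole range, above Dixon's critical value of 0.526 for 8 samples. The same check was made in 20 groups, each gene in vehicle and in BPS, and chance alone flags about 1 group in 20. The macrophage score of this library, 4.45, and its white adipocyte score, 4.34, were the highest among the vehicle libraries.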

How the results depend on the processing

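Each result was recomputed under 28 alternatives. The Chac2 change kept its sign in all of them, between -0.56 and -0.39. Its adjusted p lay between 0.0454 and 0.356 and was under 0.05 with median scaling, with a pseudocount of 0.1, and without vehicle replicate 4 or BPS replicate 2. The count of members called lower was 0 with quantile normalization, a filter of 5 FPKM or none, a spread fitted without the trend or without robust weights, a pseudocount of 5, the replicate block, the muscle score or the Y-linked level as a covariate, without the 4 BPS libraries and without vehicle replicates 2, 6 and 8, and 0 to 1 with single libraries left out. None of the 10 genes was called higher in any alternative. Chac1 (27 alternatives) turned to 0.27 and Gss to -0.13 without vehicle replicates 2, 6 and 8, Gss to -0.0430 with the muscle score, Ggct to 0.0035 with the muscle score and 0.0863 without vehicle replicates 2, 6 and 8, and Gsr to -0.0249 with the Y-linked level and -0.14 without the 4 BPS libraries. Ggct lay between -0.0875 and 0.0231 with single libraries left out. The cause of these turns was not tested.

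Over all genes, 42 were higher and 8 lower. Higher and lower counts were 8 and 1 with no filter, 24 and 5 with a filter of 5 FPKM, 15 and 2 with a pseudocount of 5, 1 and 1 with the muscle score, 2 and 1 with the Y-linked level, and 0 and 0 without vehicle replicates 2, 6 and 8. The lower count was 21 with median scaling, 4 with the replicate block and 1 without the 4 BPS libraries. With single libraries left out they were 0 to 61 higher and 1 to 27 lower. Glul, the 1 called gene of the supply list, was lost (0 called) with quantile normalization, no filter, a pseudocount of 5, the muscle score, the Y-linked level, without the 4 BPS libraries and without vehicle replicates 2, 6 and 8, and 0 to 1 were called with single libraries left out. In the NADPH list 1 gene was called with median scaling and with the replicate block, and in the gamma-glutamyl list 1 with median scaling. The NADPH and Atf4 lists had 0 to 1 with single libraries left out. Without the 4 BPS libraries the medians of the gamma-glutamyl and supply lists moved to -0.17 and 0.0329. The labels do not say whether replicate numbers pair the samples. Same-numbered deviations correlated between -0.418 and 0.583, and such values, of both signs, do not settle it. The replicate block, over 14 libraries without vehicle replicate 7, gave Chac2 -0.50 with an adjusted p of 0.0543 (limma). Slc7a11 and Chac1 were not in the fit with a filter of 5 FPKM. Depth in reads is unknown.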
